A study of Homo sapiens with 20 samples.

Results

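The 9 enzymes described here make serine from glucose and pass its side-chain carbon to folate, and they were followed through terminal erythroid differentiation of HUDEP-2 cells. They were chosen by name, *PHGDH*, *PSAT1*, *PSPH*, *SHMT1*, *SHMT2*, *MTHFD1*, *MTHFD2*, *MTHFD1L* and *ALDH1L2*, and account for 101 of the 170322 transcripts and 9 of the 46425 gene symbols in the tables. The choice was made with earlier results of these data known. HUDEP-2 is a single immortalized human erythroid progenitor line from umbilical cord blood, which grows while doxycycline drives its immortalizing genes. All libraries are poly(A)-selected RNA of unmodified wild-type cells, 2 per day, on days 0, 1, 2, 3, 4, 5, 6, 7, 8 and 12. The study calls them biological replicates, and nothing in the labels says whether they came from separate cultures, so p-values measure the spread between these samples. Day 0 cells were kept in StemSpan medium with stem cell factor (SCF), erythropoietin, dexamethasone and doxycycline. The other days were spent in Iscove's medium with transferrin, human AB serum, heparin, insulin, glutamine, erythropoietin, SCF and doxycycline. Day 0 stands in 3 of the tables for 2 labelled samples, and which columns belong to them is not resolved; those of the table of all days and of the table of days 0 to 6 were used, and every comparison with day 0 rests on this choice. SCF was left out from day 6 and doxycycline from day 8, so day and medium cannot be told apart. In the staging of the study, day 0 is the pro-erythroblast, days 4 to 6 the basophilic, day 8 the polychromatic and day 12 the orthochromatic and reticulocyte stage.

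Each day has 1 library in set 1, whose days are spread over several tables, and 1 in set 2, whose days stand in 1 table. Totals ran from 52131713 to 70358198 counts, and the 9 enzymes together took between 0.0306% and 0.148% of them. Ribosomal RNA took 17.6% and 16.8% of the counts in the day 7 and day 8 libraries of set 1, against 0.737% to 2.68% in the other 18. Globin transcripts reached 28.2% and 33.7% on day 12. All 13 erythroid markers were detected above 1 TPM (a transcript's share of its library, corrected for length), and their summed level ran from 33262 to 627688 TPM. The progenitor gene *KIT* stood at 349 and 305 TPM on day 0 and at 0.935 and 0.224 on day 12, whereas *CD34* stayed under 1 TPM throughout. Of the other blood and stromal markers, the 4 lymphoid genes were at 0, the 5 myeloid genes summed to at most 1.52 TPM (mostly *LYZ*) and the 4 stromal and endothelial genes to at most 0.0296 TPM. The megakaryocyte gene *ITGA2B* was found at up to 69.8 TPM in set 1 and 10.7 TPM in set 2, with *PF4* at 0.

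Serine is made from the glycolytic intermediate 3-phosphoglycerate in a chain of steps by PHGDH (oxidation), PSAT1 (transamination) and PSPH (removal of the phosphate). SHMT1 in the cytosol and SHMT2 in the mitochondrion then split serine into glycine and a carbon unit carried by tetrahydrofolate. In the mitochondrion MTHFD2 oxidizes this unit and MTHFD1L releases it as formate, or ALDH1L2 oxidizes it to carbon dioxide. In the cytosol the trifunctional MTHFD1 takes formate up again for purine, thymidylate and methionine synthesis. Erythroid cells also use glycine for the first step of heme synthesis.

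The genes lie on 8 chromosomes of the hg38 build. *PHGDH* spans chr1:119711934-119744218, *PSAT1* chr9:78297125-78330093, *PSPH* chr7:56010487-56051604, *SHMT1* chr17:18327860-18363563, *SHMT2* chr12:57229685-57234935, *MTHFD1* chr14:64388353-64460025, *MTHFD2* chr2:74198563-74217565, *MTHFD1L* chr6:150865679-151101887 and *ALDH1L2* chr12:105019784-105084609. RefSeq promoter windows (GRCh38.p14, 250 bases before to 50 after a start) were matched for 6 of the 9 genes, in 9 windows, and *PSPH*, *SHMT2* and *ALDH1L2* had no entry. The 150 bases just before the most upstream start are shown for the 3 enzymes called higher between days 0 and 8, *PHGDH*, *PSAT1* and *MTHFD2*, and for the cytosolic *SHMT1* and *MTHFD1*. Each reads 5′ to 3′ on the strand of the gene, and capitals mark either a CCAAT box, often bound by NF-Y and spelled ATTGG when it lies on the opposite strand, or the E-box CACGTG.
PHGDH (chr1:119711784-119711933, plus strand): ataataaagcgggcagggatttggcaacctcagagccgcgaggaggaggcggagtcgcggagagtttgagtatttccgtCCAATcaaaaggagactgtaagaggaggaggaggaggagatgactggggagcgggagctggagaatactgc
PSAT1 (chr9:78296975-78297124, plus strand): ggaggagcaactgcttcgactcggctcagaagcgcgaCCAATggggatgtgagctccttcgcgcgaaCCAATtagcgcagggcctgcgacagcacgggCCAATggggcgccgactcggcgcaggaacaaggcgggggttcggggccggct
MTHFD2 (chr2:74198413-74198562, plus strand): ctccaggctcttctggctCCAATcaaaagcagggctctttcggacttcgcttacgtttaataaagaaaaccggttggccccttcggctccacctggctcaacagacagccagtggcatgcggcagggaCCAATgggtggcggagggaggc
SHMT1 (chr17:18363564-18363713, minus strand): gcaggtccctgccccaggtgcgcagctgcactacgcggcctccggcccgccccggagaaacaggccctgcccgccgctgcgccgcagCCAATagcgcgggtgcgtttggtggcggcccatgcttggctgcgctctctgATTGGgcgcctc
MTHFD1 (chr14:64388203-64388352, plus strand): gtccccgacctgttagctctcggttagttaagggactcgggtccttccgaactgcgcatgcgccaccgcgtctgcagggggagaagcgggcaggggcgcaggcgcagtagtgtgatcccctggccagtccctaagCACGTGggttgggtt

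A set of 4 motifs was searched on both strands of the 300-base windows. CCAAT, added after the sequences had been seen, was found in 8 of the 9 windows and in all 6 genes, against 34.6% of 35116 RefSeq windows. Of those 8 windows 3 are overlapping windows of *MTHFD1L* that share 1 and the same box, so the windows are not independent. CACGTG was found in windows of *MTHFD1* and *MTHFD1L*, against 7.26% of windows. TGATGNAA, a core of the element bound by the amino acid response factor ATF4, was found in windows of *MTHFD1L* alone, against 3.62% of windows. That site is shown because it was the single match of this motif, with the match in capitals.
MTHFD1L (chr6:150866349-150866372, plus strand): gccggctcTGATGCAAtcgcgccg
The site AGATAA, of the kind bound by erythroid zinc finger factors, was found in none of the 9 windows and in 10.3% of all. A match describes the letters of the window only.

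Of the serine synthesis genes, *PSAT1* and *PHGDH* were higher on day 8 than on day 0 and *PSPH* was lower, so the 3 steps of the chain did not move together. The plot of levels in each library shows all 9 genes. *PHGDH*, the entry enzyme, was close to the detection limit on days 0 to 3, with 19 to 46 counts and 0.0893 to 0.812 TPM in the 8 libraries. It was 1.92 and 0.939 TPM on day 4 (sets 1 and 2, in this order throughout), 6.21 and 2.78 on day 5, and 8.05 and 5.19 on day 6. It reached 26.0 and 5.29 TPM on day 7 and 32.3 and 7.61 on day 8, and was back at 2.21 and 1.82 on day 12. All 4 libraries of days 7 and 8 stood above the 8 of days 0 to 3, but the 2 sets were far apart, set 1 holding 4.91 times the level of set 2 on day 7 and 4.25 times on day 8. The 2 set 1 libraries are those with the high ribosomal RNA share.

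**Figure D1:**
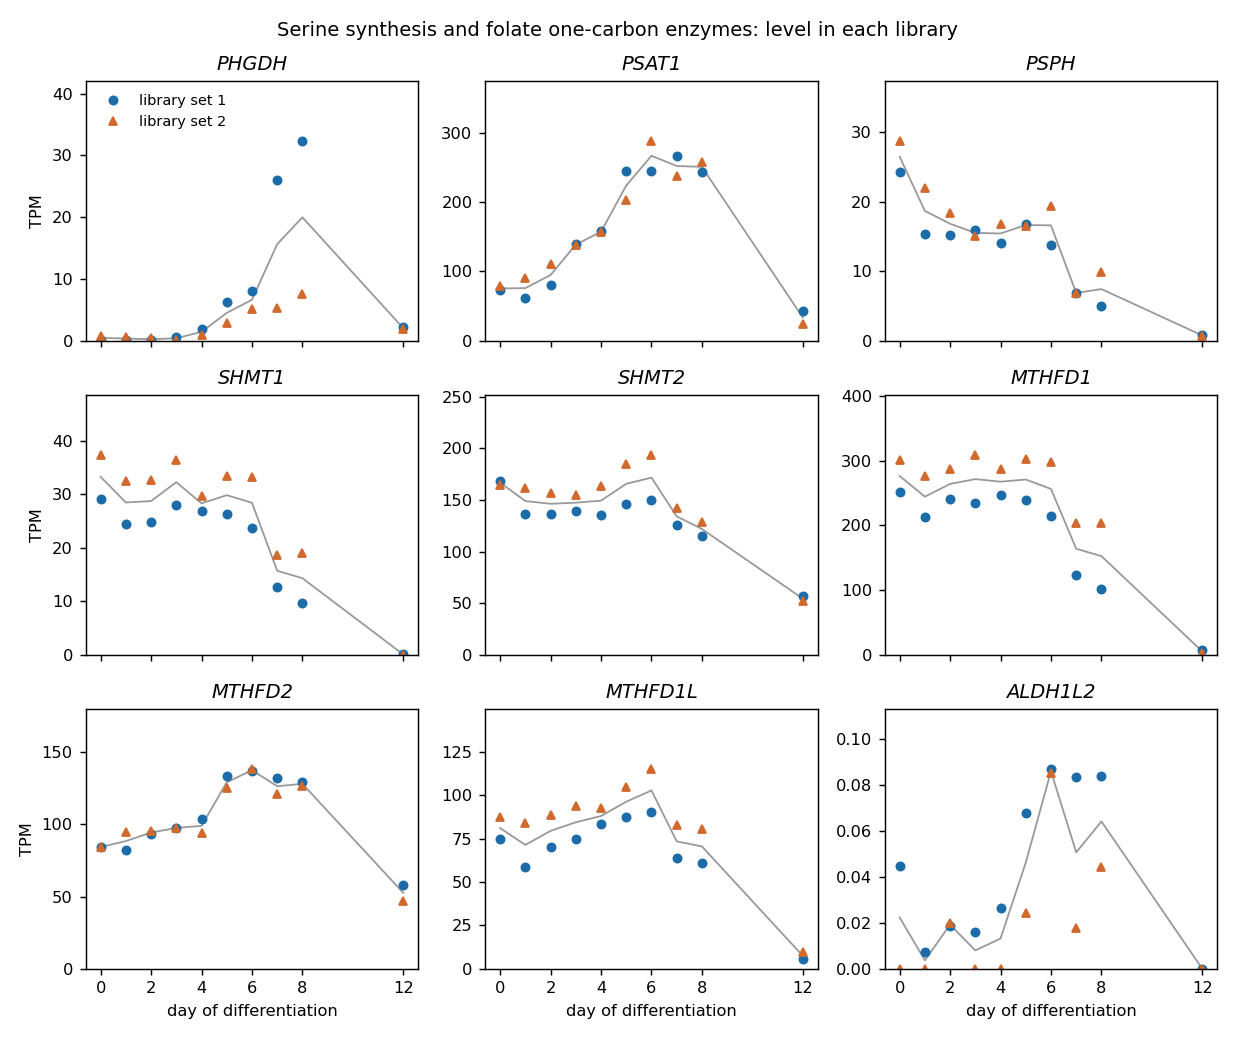
Level of each enzyme (TPM, linear axes from 0, scaled per gene) by day of differentiation; blue circles are library set 1, orange triangles library set 2, and the grey line joins their means (n = 2 per day). *PSAT1* and *MTHFD2* climb to day 6 or later, *PHGDH* climbs from day 4 with the 2 sets far apart on days 7 and 8, and *SHMT1*, *MTHFD1* and *MTHFD1L* are near the bottom of their axes on day 12.

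Between days 0 and 8 *PHGDH* rose by 5.59 ± 0.91 on the log2 scale (SE; edgeR quasi-likelihood test, adjusted p = 0.000434). Without the day 8 library of set 1 the difference was 3.97 (adjusted p = 0.00327). In set 1 alone it was 6.56 and in set 2 alone 3.64, and without the day 7 and day 8 libraries of set 1 the gene still passed the test. From day 4 to day 8 it rose by 4.35 ± 0.85 (adjusted p = 0.00518), a call lost without the day 4 library of set 2 (adjusted p = 0.0724) or without the day 8 library of set 1 (2.72, adjusted p = 0.0678). The fall from day 8 to day 12, -1.91 ± 0.77 with adjusted p = 0.0474, rests on the day 8 library of set 1. Without it the difference was -0.30 (adjusted p = 0.792), and set 2 alone gave -0.18. This call was also lost without either day 12 library (adjusted p = 0.162 and 0.135). On days 0 to 3 the transcripts that took the few reads of *PHGDH* differed between libraries, so TPM there follows the counts poorly. These transcripts included the curated NM_006623 (1866 bases) and a predicted one 7269 bases long. From day 4 the curated NM_006623 held most of the level.

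*PSAT1*, which follows PHGDH in the chain, was much more abundant. It measured 72.7 and 78.2 TPM on day 0, 158 and 157 on day 4, 245 and 288 on day 6, 243 and 258 on day 8 and 42.7 and 24.2 on day 12. The libraries of days 4 to 8 were all above those of days 0 to 3, and those of day 12 were below every other. *PSAT1* was the 1 enzyme of 9 to pass the test between days 1 and 4 (1.12 ± 0.19, adjusted p = 0.0102), where 1.44% of 16784 genes did (0.649% higher). This call was lost in 3 of the 4 fits that each left out 1 library of the 2 days, those without either day 4 library (adjusted p = 0.112 and 0.0649) or without the day 1 library of set 1 (0.93, adjusted p = 0.185). It rose by a further 1.13 ± 0.19 from day 4 to day 8 (adjusted p = 0.00233), a call lost on the log2(TPM + 1) scale (limma, 0.67, adjusted p = 0.0524), and by 2.33 ± 0.20 from day 0 to day 8 (adjusted p = 2.83e-06). From day 8 to day 12 it fell by 1.51 ± 0.19 on the log2 scale (adjusted p = 1.45e-05). Its transcript NM_058179 held 88.8% to 96.0% of the level in every library.

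*PSPH*, the last step, went the other way. Its level was 24.2 and 28.7 TPM on day 0, 14.01 and 16.8 on day 4, 4.94 and 9.91 on day 8 and 0.766 and 0.733 on day 12. Both libraries of days 7, 8 and 12 lay below all 14 libraries of days 0 to 6. The change from day 0 to day 8 was -1.35 ± 0.25 (adjusted p = 0.00103) and from day 8 to day 12 -1.54 ± 0.26 (adjusted p = 0.000163). The change of -0.74 ± 0.25 from day 4 to day 8 missed the threshold (adjusted p = 0.0532). It passed with DESeq2 (adjusted p = 0.0161), the exact test of edgeR (0.0359) and limma on log2(TPM + 1) (-1.02, adjusted p = 0.0120). In edgeR it also passed with a minimum of 10 counts in every library (adjusted p = 0.0406) and the library set as a block (adjusted p = 0.00864). With the libraries of the 2 days alone it did not pass (edgeR adjusted p = 0.211). Leaving out single libraries gave from -0.44 (without the day 8 library of set 1) to -1.14 (without that of set 2). The gene has a near-identical pseudogene, *PSPHP1*, with 236 to 1002 counts per library, and its reads are spread over 26 transcripts, so its level is uncertain. Within libraries, the ratio of *PSAT1* to *PSPH* TPM was 3.00 and 2.72 on day 0, 49.2 and 26.1 on day 8 and 55.8 and 33.0 on day 12.

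The serine hydroxymethyltransferases parted on day 12, when the cytosolic *SHMT1* was almost absent and the mitochondrial *SHMT2* remained. *SHMT1* measured 29.1 and 37.3 TPM on day 0, 26.9 and 29.7 on day 4, 9.64 and 18.9 on day 8 and 0.0558 and 0.0430 on day 12, the last from 7 counts in each library. The libraries of days 7 and 8 were below all those of days 0 to 6, and those of day 12 were lower still. From day 8 to day 12 *SHMT1* fell by 6.49 ± 0.34 on the log2 scale (adjusted p = 3.87e-09). The smaller change from day 0 to day 8, -0.65 ± 0.23, barely passed the test (adjusted p = 0.0444), and it did not pass without the day 8 library of set 1 (-0.34, adjusted p = 0.358) or without either day 0 library (adjusted p = 0.0659 and 0.219). From day 4 to day 8 the difference of -0.56 was not called (edgeR adjusted p = 0.114). It passed with the library set as a block (-0.59, adjusted p = 0.00278) and on the log2(TPM + 1) scale (limma, -1.01, adjusted p = 0.0237). Leaving out single libraries gave from -0.26 (without the day 8 library of set 1) to -0.94 (without that of set 2).

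*SHMT2* measured 169 and 165 TPM on day 0, 135 and 163 on day 4, 115 and 129 on day 8 and 56.8 and 51.9 on day 12. In TPM the day 12 libraries were below all others. In the count fit, which scales each library to the bulk of its genes, no change of *SHMT2* passed the test in any of the 5 comparisons, and the difference from day 8 to day 12 was 0.26 ± 0.14 (adjusted p = 0.125). Other count fits called it higher on day 12, at 0.44 with DESeq2 (adjusted p = 0.00540), 0.44 with upper-quartile scaling (adjusted p = 0.0150) and 0.36 with at least 10 counts in every library (adjusted p = 0.0342). On the log2(TPM + 1) scale (limma) the sign turned, to -1.15 from day 8 to day 12 and -0.45 from day 0 to day 8, and both passed (adjusted p = 3.32e-05 and 0.0349), so the direction of *SHMT2* from day 8 to day 12 depends on the scale. Which of its 13 transcripts received the reads varied between libraries, NM_005412 taking from 9.001% to 94.4% of the TPM, and this was summed over here. The ratio of *SHMT2* to *SHMT1* TPM, which no scaling between libraries can change, stayed between 4.26 and 6.34 on days 0 to 6, was 11.9 and 6.79 on day 8, and reached 1017 and 1208 on day 12. Because the libraries are bulk RNA, fewer cells making a transcript and less of it per cell cannot be told apart.

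The choice of scale bears on the calls in every comparison. On the log2(TPM + 1) scale the median of all genes moved by -0.34 between days 0 and 8 and by -0.68 between days 8 and 12, against 0.00 and -0.20 in the count fit. Of the genes that passed between days 0 and 8, 47.7% were higher in the count fit and 15.5% on the TPM scale, and between days 8 and 12 41.6% and 13.5%. The same shares were 46.2% and 12.2% between days 4 and 8, 45.04% and 13.6% between days 1 and 4, and 66.7% and 43.5% between days 0 and 1. The falls from day 8 to day 12 were larger on log2(TPM + 1) for *PSAT1* (-2.92), *PSPH* (-2.20), *MTHFD1* (-4.65) and *MTHFD1L* (-3.11), and the rise of *MTHFD2* from day 0 to day 8 was smaller (0.60). Levels below are therefore given with ratios between enzymes of the same library.

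*MTHFD1*, the cytosolic trifunctional enzyme, was the most abundant of the 9 at the start, with 252 and 301 TPM on day 0. It stayed between 213 and 309 TPM up to day 6, measured 101 and 204 TPM on day 8, and had left 6.78 and 3.23 on day 12. In TPM the libraries of days 7 and 8 lay below all those of days 0 to 6, those of set 1 the furthest, and those of day 12 far below both. The change from day 0 to day 8 was -0.30 ± 0.27 (adjusted p = 0.416), and without the day 8 library of set 1 it was 0.02. It was -0.93 on log2(TPM + 1), just inside the threshold (limma, adjusted p = 0.0473), and -0.94 on log2(TPM + 0.1), just outside it (adjusted p = 0.0530). From day 8 to day 12 *MTHFD1* fell by 3.50 ± 0.30 (adjusted p = 3.85e-07). Transcript NM_005956 held at least 96.1% of its level.

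The mitochondrial enzymes split in turn. *MTHFD2*, the dehydrogenase and cyclohydrolase, measured 84.3 and 84.4 TPM on day 0, 104 and 94.1 on day 4, 137 and 138 on day 6, 130 and 127 on day 8 and 58.2 and 47.0 on day 12. All libraries of days 5 to 8 lay above all those of days 0 to 4, and those of day 12 below both. It rose by 1.21 ± 0.13 from day 0 to day 8 (adjusted p = 2.30e-05), in each set alone by 1.31 and 1.10, and by 0.84 ± 0.13 from day 4 to day 8 (adjusted p = 0.00171). The difference of -0.29 ± 0.13 from day 8 to day 12 did not pass (adjusted p = 0.0736), but it passed with the library set as a block (-0.29, adjusted p = 0.0317) and on the log2(TPM + 1) scale (limma, -1.28, adjusted p = 4.87e-07).

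*MTHFD1L*, the formate-releasing synthetase, measured 74.9 and 87.2 TPM on day 0, 90.5 and 115 on day 6, 60.7 and 80.4 on day 8 and 5.48 and 9.45 on day 12. The days up to 8 overlapped and day 12 lay below them all. No earlier comparison passed for *MTHFD1L*, and the difference from day 0 to day 8 was 0.33 ± 0.28 in the count fit (adjusted p = 0.384) but -0.21 on the log2(TPM + 1) scale. From day 8 to day 12 it fell by 2.12 ± 0.29 (adjusted p = 3.26e-05), with -2.83 without the day 12 library of set 2 and -1.67 without that of set 1. *ALDH1L2*, which removes the carbon as carbon dioxide, was scarcely present, with 0 to 25 counts and at most 0.0871 TPM in any library. Its counts were 10 and 0 on day 0, 24 and 18 on day 6, 25 and 10 on day 8 and 0 and 0 on day 12. Against the 3 counts per library that a count of 0 allows, it was at least 3.17-fold lower on day 12 than on day 8 (counting error only), or 1.90-fold from the lower day 8 library. Its test between these days (adjusted p = 0.0467) was lost without any 1 of the 4 libraries, with adjusted p from 0.0588 to 0.148.

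**Figure D2:**
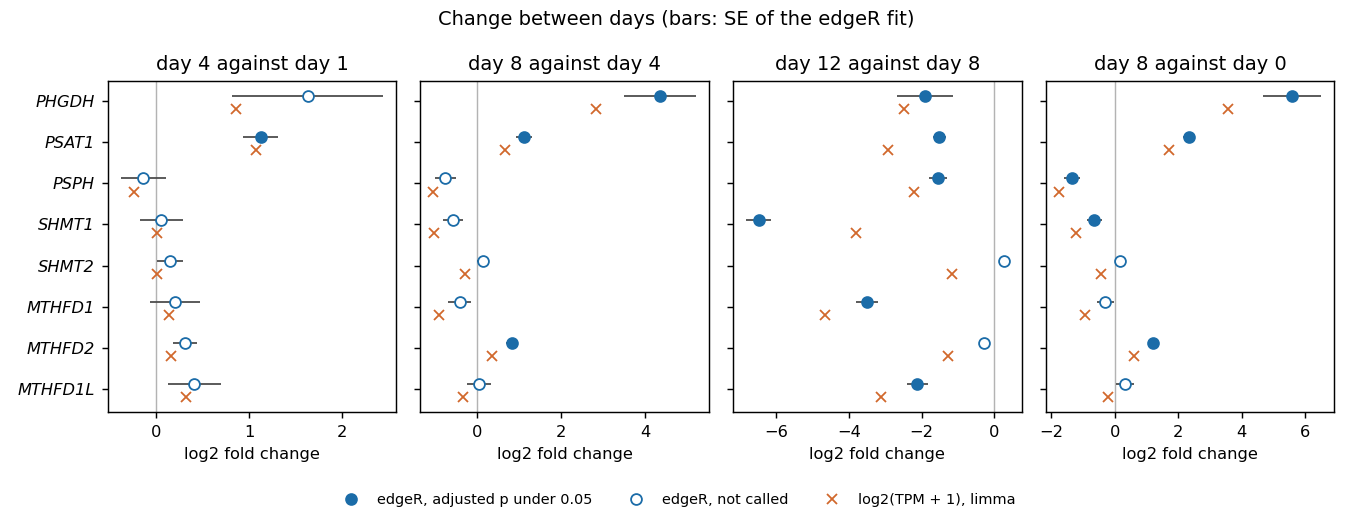
Log2 fold change of 8 enzymes in 4 comparisons (*ALDH1L2* is left out because its day 12 libraries hold no counts); circles are the edgeR count fit with SE bars, filled where adjusted p was under 0.05, and orange crosses the difference in mean log2(TPM + 1) from limma. The crosses lie to the left of the circles for all 8 enzymes from day 4 to 8, from day 0 to 8 and, but for *SHMT1*, from day 8 to 12, and for *SHMT2* and *MTHFD1L* they fall on the other side of 0 between days 0 and 8.

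Counted together, no enzyme of the 9 passed between days 0 and 1 in the edgeR test, where 0.393% of all genes did, none had an unadjusted p under 0.05, and DESeq2, the exact test and limma on TPM called none either. Between days 4 and 8 the test called 3 (*PHGDH*, *PSAT1* and *MTHFD2*, all higher) against 17.2% of all genes (7.94% higher and 9.24% lower). On the log2(TPM + 1) scale 2 of the 9 were higher in that comparison (*PHGDH* and *MTHFD2*) and 2 lower (*PSPH* and *SHMT1*), against 3.52% of all genes higher and 25.3% lower on that scale. Between days 8 and 12 it called 7, all lower, against 57.2% of all genes tested (23.8% higher and 33.4% lower). *SHMT2* and *MTHFD2* were the 2 not called, each of which passed under other fits given above, and on log2(TPM + 1) 8 of the 9 were lower, all but *ALDH1L2*, against 53.6% of all genes. Between days 0 and 8 it called 5, with *PHGDH*, *PSAT1* and *MTHFD2* higher and *PSPH* and *SHMT1* lower, against 37.1% of all genes, 17.7% higher and 19.4% lower. On log2(TPM + 1) 3 were higher and 4 lower, with *SHMT2* and *MTHFD1* added to the lower, against 7.29% of all genes higher and 39.7% lower. The median log2 fold change of the 9 was 0.33 from day 0 to day 8 and -1.91 from day 8 to day 12, against 0.00 and -0.20 over all 16784 genes tested. The comparisons share days, so their counts are not independent.

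The order of the enzymes by level per length changed over the course. On day 0 it ran from *MTHFD1* (276 ± 35 TPM, mean ± SD, n = 2) through *SHMT2* (167 ± 2.5), *MTHFD2* (84.3 ± 0.099), *MTHFD1L* (81.1 ± 8.7), *PSAT1* (75.4 ± 3.9), *SHMT1* (33.2 ± 5.8) and *PSPH* (26.5 ± 3.2) to *PHGDH* (0.473 ± 0.48) and *ALDH1L2* (0.0224 ± 0.032). The libraries of *MTHFD2* and *MTHFD1L*, and those of *MTHFD1L* and *PSAT1*, overlapped in this order, and the other neighbours did not. On day 8 *PSAT1* led (251 ± 11 TPM), followed by *MTHFD1* (152 ± 73), *MTHFD2* (128 ± 1.9) and *SHMT2* (122 ± 9.5), the last 3 of which overlapped. *MTHFD1L* (70.5 ± 14) came next and stood apart from *PHGDH* (19.97 ± 17) below it, which was followed by *SHMT1* (14.3 ± 6.6) and *PSPH* (7.42 ± 3.5). *PHGDH* overlapped with *SHMT1*, and *SHMT1* with *PSPH*. On day 12 *SHMT2* (54.4 ± 3.4) and *MTHFD2* (52.6 ± 8.0) could not be separated and led *PSAT1* (33.5 ± 13), with *MTHFD1L* (7.47 ± 2.8) and *MTHFD1* (5.00 ± 2.5) far below. The *MTHFD2* level and its share below are summed over coding and non-coding transcripts. Its coding NM_006636 alone measured 25.0 and 17.8 TPM on day 12, below *PSAT1* in each library (42.7 and 24.2). The summed level of the 9 lay between 592 and 1091 TPM from day 0 to day 8 and was 173 and 138 TPM on day 12. Within that sum *MTHFD1* went from 37.1% ± 2.0 on day 0 to 3.13% ± 1.1 on day 12, *MTHFD2* from 11.4% ± 0.82 to 33.8% ± 0.20 and *SHMT2* from 22.5% ± 2.0 to 35.2% ± 3.3.

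Ratios of mitochondrial to cytosolic enzymes show the same data without scaling. *MTHFD2* relative to *MTHFD1* was 0.335 and 0.281 on day 0, 0.636 and 0.465 on day 6, 1.28 and 0.622 on day 8 and 8.59 and 14.5 on day 12. Both day 12 libraries stood above all 18 others. The *MTHFD2* level in this ratio is summed over all its transcripts. On day 12 those with an earlier 3′ end, mostly the non-coding NR_027405, held 57.1% and 62.2% of it. The coding NM_006636 alone measured 25.0 and 17.8 TPM there, so the ratio overstates the coding transcript. *MTHFD1L* relative to *MTHFD1* was 0.297 and 0.290 on day 0, 0.601 and 0.394 on day 8 and 0.809 and 2.92 on day 12, with the day 12 libraries far apart. Among the mitochondrial enzymes, *MTHFD2* relative to *SHMT2* went from 0.500 and 0.512 on day 0 to 1.12 and 0.986 on day 8 and 1.03 and 0.904 on day 12. With 2 libraries per day an exact permutation test cannot go below p = 0.333, and the ratios were not tested.

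**Figure D3:**
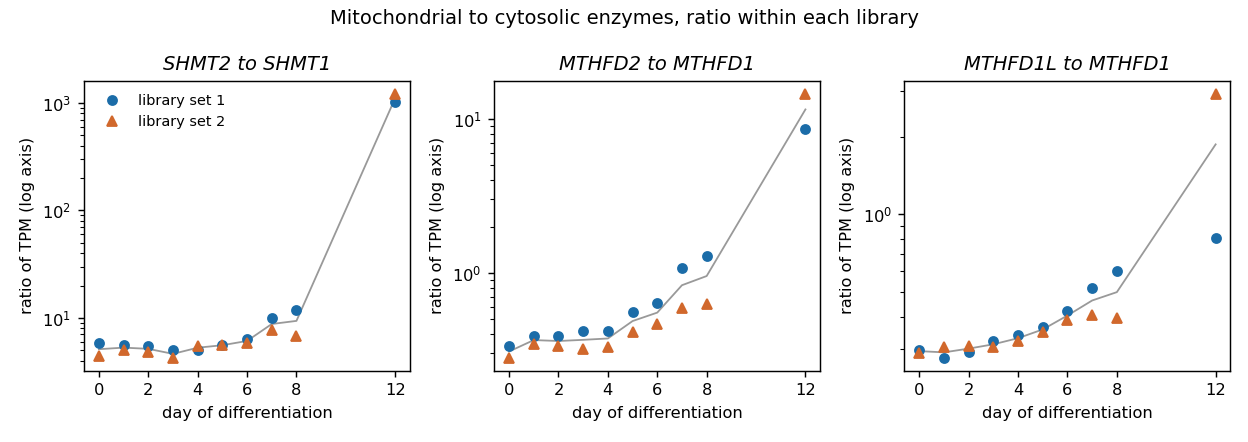
Ratio of TPM between mitochondrial and cytosolic enzymes within each library (log axis) by day; circles are library set 1, triangles set 2, the line their mean. *SHMT2* to *SHMT1* stays between 4.26 and 6.34 up to day 6 and is 1017 and 1208 on day 12, and *MTHFD2* to *MTHFD1* goes from under 1 on day 0 to 8.59 and 14.5. *MTHFD2* is summed over its coding and non-coding transcripts.

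The likeness of the courses over the 10 days is given as Pearson r within set 1 and set 2, on log2 CPM (counts scaled to library size and composition, as in the count fit) and on log2(TPM + 1). *SHMT1* and *MTHFD1* ran closest on log2 CPM (0.996 and 0.998) and stayed so on log2(TPM + 1) (0.998 and 0.994). *MTHFD1L* ran with *SHMT1* at 0.944 and 0.925 on log2 CPM and 0.962 and 0.982 on log2(TPM + 1), and *PSPH* at 0.911 and 0.878, then 0.969 and 0.956. *PSPH* and *MTHFD1L* were less alike, at 0.762 and 0.709 on log2 CPM and 0.879 and 0.902 on log2(TPM + 1). Several other likenesses depended on the scale. *PHGDH* and *MTHFD2* gave 0.993 and 0.958 on log2 CPM but 0.681 and 0.468 on log2(TPM + 1), whereas *PSAT1* and *MTHFD2* gave 0.923 and 0.793, then 0.967 and 0.975. *SHMT2* ran with *PHGDH* on log2 CPM (0.819 and 0.809) and not on log2(TPM + 1) (-0.14 and -0.053). Between *SHMT1* and *SHMT2* the sign turned, from -0.54 and -0.74 on log2 CPM to 0.978 and 0.977 on log2(TPM + 1). These values describe 10 days that share libraries, depth and scaling.

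Among all other genes tested, the 3 most like each enzyme were ranked by the lower r of the 2 sets on log2 CPM, with no ranking made in TPM. For *PHGDH* these were *GPT2* (0.985), a mitochondrial alanine aminotransferase, *ASS1* (0.966), the argininosuccinate synthase of arginine synthesis, and *ULBP1* (0.955), a ligand of the NKG2D receptor. For *MTHFD2* they were *RAB3IP* (0.976), *ADM2* (0.972), which encodes the peptide adrenomedullin 2, and again *ASS1* (0.967). For *PSAT1* they were *KLHL12*, *HLA-F-AS1* and *IMPA2* (0.970 to 0.975), for *PSPH* *SHLD2P3*, *MRPL22* and *ZNF234* (0.980 to 0.983), and for *SHMT2*, with the loosest fit but for *ALDH1L2*, *MIIP*, *USE1* and *PHPT1* (0.910 to 0.914). *SHMT1* ran with *RCN1*, *ERCC6L* and *TTF2* and *MTHFD1* with *FARSB*, *TSHZ1* and *ERCC6L*, all at 0.998 or above. *ERCC6L* and the neighbours of *MTHFD1L*, *NCAPD2* and *ESPL1* (both 0.983, after *ZNF184* at 0.985), are known for work on mitotic chromosomes. *ALDH1L2*, at a few counts, was nearest to *STC2* (0.809), *C17orf80* (0.807) and *PWWP2A* (0.785).

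*MTHFD2* differed between days in transcript makeup as well as in level. Its 3 transcripts end at either of 2 places: the coding NM_006636 runs to the far end of the gene, and the non-coding NR_027405 and the predicted XM_006711924 stop 2267 bases earlier. The transcripts with the earlier end held 6.33% to 27.6% of the *MTHFD2* TPM in the 18 libraries of days 0 to 8, with a median of 10.2%, and 57.1% and 62.2% in the day 12 libraries. In TPM the long form measured 119 and 117 on day 8 and 25.0 and 17.8 on day 12, and the short forms 10.3 and 10.3 on day 8 and 33.2 and 29.2 on day 12. The day 12 libraries thus stood apart from all others in their share of the short forms, whose own level on day 12 was higher than in 16 of the earlier libraries, the others being day 5 of set 2 (32.3 TPM) and day 6 of set 1 (37.2 TPM). Reads were divided between overlapping transcripts by StringTie, so these are estimates, and degraded RNA was not tested as a source of the shift.

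**Figure D4:**
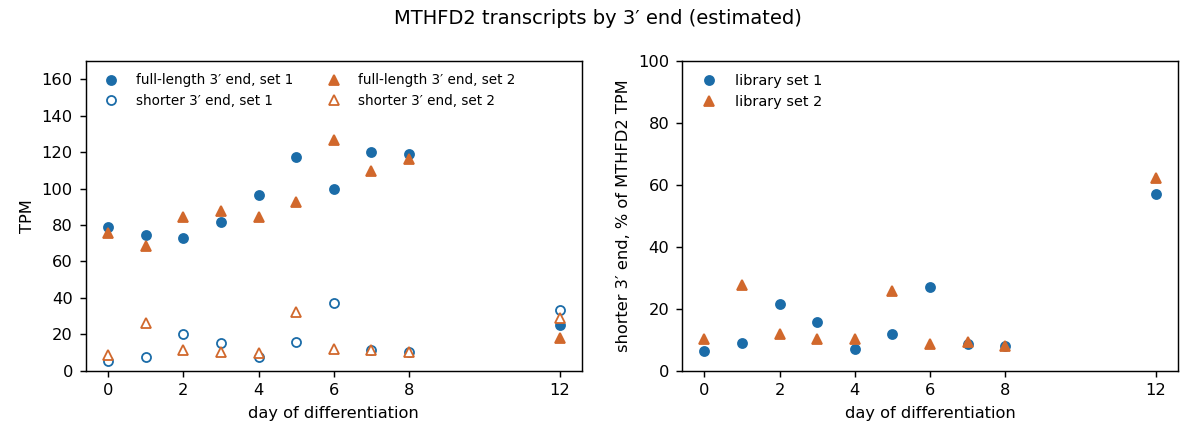
*MTHFD2* transcripts by 3′ end. Left, TPM of the transcript with the full-length 3′ end (filled) and of those ending earlier (open); right, the share of *MTHFD2* TPM in those ending earlier, at 6.33% to 27.6% before day 12 and 57.1% and 62.2% on day 12 (circles set 1, triangles set 2).

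Another 50 genes around the pathway were read beside the 9 enzymes, of which 45 were tested and, between days 0 and 8, 16 were called higher and 14 lower, against 17.7% of all genes called higher and 19.4% lower. On the log2(TPM + 1) scale 14 of the 45 were called higher and 21 lower, against 7.29% of all genes higher and 39.7% lower. The lists were chosen with earlier results of these data known, so these counts describe them only. Of the 30 calls of the count fit 27 passed there in the same direction, and among the others *MAT2B* turned sign (0.55 to -0.05) and *SLC46A1* (-0.72) did not pass. Leaving out 1 of the 4 libraries of the 2 days at a time lost the call of 12 of the 30, among them *MAT2B*, *SLC19A1*, *SLC46A1*, *FPGS*, *SFXN1*, *SFXN2*, *GART*, *PAICS*, *ATIC*, *DDIT3* and *ALAS1*, in each case at least without the day 8 library of set 1. Of 7 carriers of serine and glycine 4 rose and 2 fell, with the same shares of all genes (17.7% and 19.4%) beside them, and their median was 1.16. On log2(TPM + 1) 4 were higher and 3 lower, against 7.29% and 39.7% of all genes. *SLC1A4*, a neutral amino acid carrier of the plasma membrane, had 33 and 20 counts on day 0 and 2540 and 1088 on day 8 and rose most (6.47 ± 0.90, edgeR adjusted p = 0.000134), while the mitochondrial sideroflexin *SFXN2* fell by 1.43. *SLC6A9*, the glycine carrier GLYT1, measured 5.70 and 8.42 TPM on day 0 and 186 and 124 on day 8 (5.05), and the mitochondrial glycine carrier *SLC25A38* rose by 1.16. The libraries of day 8 lay above those of day 0 for *SLC1A4*, *SLC6A9* and *SLC25A38* alike. *SFXN1*, a mitochondrial serine carrier, measured 60.7 and 88.8 TPM on day 0, 17.3 and 32.8 on day 8 and 0.603 and 0.146 on day 12.

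Of 5 folate uptake and retention genes tested, 4 fell between days 0 and 8 and none rose, against 19.4% of all genes lower and 17.7% higher, with a median of -2.05. The proton-coupled carrier *SLC46A1* had 41 and 251 counts on day 0 and 4 and 3 on day 8 (-4.86, adjusted p = 0.0409). The lysosomal hydrolase *GGH* changed least in the count fit (-0.13, not called). On log2(TPM + 1) 4 of the 5 were lower, against 39.7% of all genes, with *GGH* (-0.70, limma adjusted p = 0.00445) in place of *SLC46A1*. The reduced folate carrier *SLC19A1* fell by 2.08, the mitochondrial carrier *SLC25A32* by 2.05 and the polyglutamate synthase *FPGS* by 1.21. *FOLR1* and *FOLR2* had 0 counts in all 20 libraries, which allows up to 3 counts in each. Of 8 other folate enzymes tested, 2 rose and 1 fell, against 17.7% of all genes higher and 19.4% lower. On log2(TPM + 1) 1 was higher and 3 lower, against 7.29% and 39.7% of all genes. The 1 that fell in the count fit was *MTFMT*, which formylates the initiator methionyl-tRNA (by 1.10). There *FTCD* had the highest value (1.20) and was not called. Thymidylate synthase *TYMS* went from 291 and 448 TPM on day 8 to 2.98 and 3.04 on day 12, a fall of 5.45 on the log2 scale.

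In the glycine cleavage system *GLDC*, its decarboxylase, had 0 to 6 counts per library and was not tested. The carrier protein *GCSH* fell by 1.59, and *AMT* (-0.03) and *DLD* (-0.20) were not called in the count fit. On log2(TPM + 1) 2 of the 3 tested were lower, *GCSH* and *DLD* (-0.81, limma adjusted p = 0.0112), against 39.7% of all genes. Of 6 purine synthesis genes 3 fell (*GART*, *PAICS* and *ATIC*, by 0.72, 0.80 and 0.67) and none rose, *PFAS* having the lowest value (-1.19, not called) and *ADSL* the highest (-0.09), and the median was -0.70, against 19.4% of all genes lower. On log2(TPM + 1) 5 of the 6 were lower, with *PFAS* (-1.87, limma adjusted p = 0.0141) and *PPAT* (-0.75, adjusted p = 0.0329) among them, against 39.7% of all genes. Of 7 methionine cycle and transsulfuration genes 2 rose and 2 fell, against 17.7% and 19.4% of all genes. On log2(TPM + 1) 1 was higher and 3 lower, against 7.29% and 39.7% of all genes. Values in the count fit ran from *CTH* (2.04), which makes cysteine, to *AHCY* (-1.59), which clears S-adenosylhomocysteine. The other gene that rose, *MAT2B*, is the one that turned sign in TPM. The glycine-using synthases of heme synthesis parted, the erythroid *ALAS2* rising by 3.15 and the general *ALAS1* falling by 0.87.

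All 7 genes of the list of ATF4 and its targets outside the pathway rose between days 0 and 8, against 17.7% of all genes called higher, from *ATF4* itself (1.36) to the pseudokinase *TRIB3* (5.49). This list was chosen with earlier results of these data known, so its count beside the share of all genes is a description and not a test. *TRIB3* measured 2.70 and 4.18 TPM on day 0, 159 and 32.1 on day 8 and 412 and 558 on day 12. The asparagine synthetase *ASNS* measured 58.1 and 66.9, then 394 and 360, then 198 and 153 TPM on the same days. In TPM both day 12 libraries exceeded day 8 for *TRIB3* and were below it for *ASNS*, whose difference turned sign with the scale, from 0.31 in the count fit (edgeR adjusted p = 0.155) to -1.11 on log2(TPM + 1) (limma, adjusted p = 0.000150). Between days 8 and 12, 6 of the 7 were called higher (all but *ASNS*), against 23.8% of all genes. On the log2(TPM + 1) scale 3 of these passed (*TRIB3*, *DDIT3* and *SESN2*), against 8.38% of all genes higher and 53.6% lower, *CHAC1* (0.61) and *SLC7A11* (0.18) did not, and *ATF4* turned sign (1.00 to -0.38, not called). *PHGDH* and *TRIB3* both differed between the sets on day 8, with set 1 the higher for each, whereas *ASNS* was close in both (394 and 360 TPM). That set 1 library held 16.8% ribosomal RNA, and a link between the differences of *PHGDH* and *TRIB3* was not tested. Promoter windows with TGATGNAA were found in this and the other lists for *SLC1A4*, *ASNS*, *CHAC1* and *SLC1A5*, 4 of 66 windows, against 3.62% of all windows; of these genes *ASNS* and *CHAC1* are in the ATF4 list.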

How the data were processed

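The sources name Trimmomatic 0.38, HISAT2 2.1.0 and StringTie 2.1.3b for the hg38 build, with TruSeq stranded mRNA libraries. The authors deposited a count and a TPM value per transcript and library; their FPKM columns were not used. Counts and TPM were summed by gene symbol. Of 63 value columns 40 were used; the other 23 include the day 0 columns of the day 12 table, since 3 sets of day 0 columns stand for 2 labelled samples and which belong to them is not resolved. Columns name a day and no replicate number, so the libraries are called set 1 and set 2. Counts (filterByExpr, TMM) of all 20 libraries entered 1 edgeR 4.0.16 quasi-likelihood fit (R 4.3.3) with a coefficient per day, adjusted by Benjamini-Hochberg over 16784 genes, threshold 0.05. On simulated counts for day 8 against day 0 over 15760 genes it recovered 100% of 200 genes changed 4-fold, and 4.76% of its calls were false. The simulation gave every gene the same spread and, but for the changed genes, the same mean on all days. It changed no gene of low level and held no difference between library sets. These rates therefore check the running of the test and do not carry over to the real libraries. DESeq2 1.42.0, limma 3.58.1 on log2(TPM + 1) or log2(TPM + 0.1), other normalizations and filters, and fits without single libraries were alternatives. Members and lists were chosen with earlier results of these data known. Named were all members, the highest and lowest gene of each list from day 0 to day 8, and the 3 genes most like each member; other listed genes were named after their values were seen. Promoters were read from RefSeq windows (GRCh38.p14). Some genes of the lists are counted but not reported here by name.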

Additional observations from a re-analysis of the deposited data

How the results depend on the processing

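No paired analysis was possible because the deposited columns carry no replicate number. A fit with the library set as a block was run, but the sets are not known to be replicate series or batches. The days of set 1 are spread over several tables, and its day 8 library comes from another table than the days compared with it. In comparisons with day 8, day and table therefore cannot be told apart within set 1. Calls of the block fit there do not replace a paired test. With 2 libraries a day, calls of single days rest on a spread shared over all 20 libraries. With the libraries of the 2 days alone, no gene was called from day 0 to 1 or from day 1 to 4, 72 from day 4 to 8 and 3726 from day 0 to 8, and the enzymes called from day 1 to 4 and from day 4 to 8 went to 0. The cause was not tested in this and the other cases below. Depth limits *ALDH1L2* everywhere and *PHGDH* up to day 3. *SHMT1* and *ALDH1L2* dropped out where 10 counts in every library were required.

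The number of enzymes called stayed within 1.5 times its main value except with the set block from day 4 to 8 (5), with the libraries of the 2 days alone as above, and when leaving out 1 library at a time from day 1 to 4 (0 to 1) and from day 4 to 8 (2 to 5). Without single libraries it was 5 to 7 from day 8 to 12 and 4 to 5 from day 0 to 8. Of all genes, 66 were called from day 0 to 1, and 425 with DESeq2, 245 with the exact test, 299 and 157 with limma on log2(TPM + 1) and log2(TPM + 0.1), 442 with the set block and 7 to 50 without single libraries. From day 1 to 4 the main count of 242 became 953, 689, 690, 482 and 1120 in the same order, 370 with every gene holding at least 1 count, and 30 to 252 without single libraries. From day 4 to 8 the count of 2884 became 4337 with DESeq2, 4837 and 4796 with limma, 5358 with the set block, 604 to 3575 without single libraries and 700 without the day 7 and day 8 libraries of set 1, an alternative chosen after seeing the data. From day 0 to 8 the count of 6224 became 3568 to 5833 without single libraries and 3721 without those 2 libraries.

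On the scales log2(TPM + 1) and log2(TPM + 0.1), the sign turned for *SHMT2* from day 4 to 8 (-0.29 and -0.29), from day 8 to 12 (-1.15 and -1.16) and from day 0 to 8 (-0.45 and -0.45), for *MTHFD1L* from day 4 to 8 (-0.33 and -0.33) and from day 0 to 8 (-0.21 and -0.21), and for *PSAT1* from day 0 to 1 (-0.018 and -0.018). Without the day 7 and day 8 libraries of set 1 *MTHFD1* from day 0 to 8 was 0.052, and with the set block *AMT* was 0.10. Without single libraries the sign of uncalled differences turned for *PSAT1* (-0.15 to 0.28), *SHMT1* (-0.30 to 0.0050), *MTHFD1* (-0.23 to 0.025), *MTHFD1L* (-0.36 to 0.059) and *ALDH1L2* (-5.22 to 2.95) from day 0 to 1, for *PSPH* (-0.31 to 0.011), *SHMT1* (-0.090 to 0.21) and *ALDH1L2* (-2.94 to 4.60) from day 1 to 4, and for *MTHFD1L* (-0.063 to 0.17) from day 4 to 8. From day 0 to 8 it turned for *MTHFD1* (-0.70 to 0.024), *MTHFD2L* (-0.055 to 0.20), *MTHFS* (-0.17 to 0.073), *AMT* (-0.62 to 0.99), *DLD* (-0.44 to 0.011), *GGH* (-0.32 to 0.081), *MTR* (-0.41 to 0.23), *CBS* (-0.24 to 0.036) and *ADSL* (-0.33 to 0.13). No difference of an enzyme called in the reported count fit turned its sign under the alternatives run, but *SHMT2* from day 8 to 12, not called there, was called higher with DESeq2 and upper-quartile scaling (0.44 each) and lower with limma on TPM.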
